A study of Homo sapiens with 11 samples.

Results

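The 45 genes described here encode the machinery of mitosis and of the G2/M transition, and they were taken by symbol from the 26485 rows of the 2 deposited count tables, 1 for each time of treatment. All 45 symbols had a row in both tables, and all 45 passed the filter on low counts in every fit. RNA was sequenced from Caki-1-SR cells, a clear cell renal cell carcinoma line that came from a skin metastasis and was made resistant to the tyrosine kinase inhibitor sunitinib by long exposure to it. The treated cells (ODC) received Rapta-C at 2 µM, erlotinib at 1 µM, metformin at 1 µM and parthenolide at 5 µM, and the control cells (CTRL) received none of these drugs. The study names the control both untreated and sham-treated, and the line's culture medium held sunitinib at 1 µM in all groups, as the growth protocol gives it. There were 3 CTRL and 3 ODC libraries at 24 h and 2 CTRL and 3 ODC libraries at 2 h, all from 1 resistant clone, so that other clones and the parental line are not represented. The libraries are named below by the number in their titles: at 24 h the controls are libraries 1, 3 and 5 and the treated are 2, 4 and 6, while at 2 h the controls are 1 and 2 and the treated are 3, 4 and 5.

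Cells enter mitosis when cyclin B bound to CDK1 becomes active, after CDC25 phosphatases remove inhibitory phosphates from CDK1. The Aurora and Polo-like kinases then drive spindle assembly, the kinetochore couples chromosomes to microtubules, and the spindle checkpoint holds back the anaphase-promoting complex (APC/C) until every chromosome is attached. Most of these genes are transcribed late in the cell cycle, under the DREAM and MuvB complexes with B-MYB and FOXM1, so that in a mixed population their RNA is known to follow the share of cells in G2 and mitosis. In bulk RNA, fewer cells in those phases and less RNA per cell cannot be told apart.

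Total counts per library ran from 17785229 to 20882856 at 24 h and from 25782895 to 31118349 at 2 h. Single members had 210 to 17158 counts in a library at 24 h and 511 to 27328 at 2 h. Averaged over genes, the spread between replicate libraries was larger than counting error. For some members it was not, as for AURKB and CDK1 in the 24 h controls and CCNA2 in those of 2 h. Levels are given as CPM, counts relative to the library's total, scaled by TMM, a factor that aligns most genes between libraries. Nothing states that the libraries came from separate cultures, and the p-values then measure only the spread between these libraries, which may be technical. The time points carry different months in their titles, so that time and month cannot be told apart. As for the cell type, the renal marker PAX8 (437 to 891 CPM) and the mesenchymal filament gene VIM (2452 to 3797 CPM) were high in all libraries, while PAX2 and CA9, a usual marker of clear cell carcinoma, were at or near 0 (at most 4 counts and 1 count). The other listed renal markers were KRT8 (395 to 979 CPM), KRT18 (308 to 671), NNMT (126 to 278), EPCAM (0.240 to 3.87) and CDH6 (6.15 to 424). CDH6 differed widely between libraries, with 66.2, 49.5 and 9.13 CPM in the 24 h controls and 400 and 218 CPM in those of 2 h. Immune markers summed to at most 2.73 CPM in any library, and endothelial markers to at most 1.01 CPM. Of the 3 fibroblast markers, the collagen gene COL1A1 was present in every library at 60.0 to 238 CPM, while DCN was at most 2.83 CPM. CTRL library 1 at 2 h stood apart by the third, the collagen gene COL3A1. It had 1081 counts there, against 0 in the other control and 3, 6 and 3 in the treated libraries. Some other markers were also highest there among the 2 h libraries. DCN had 73 counts against 0 to 3, EPCAM 100 against 19 to 27 and the endothelial marker VWF 13 against 0 to 2. COL1A1 had 238 CPM against 134 to 163 CPM. CDH6 and the immune marker CD14 were instead highest in ODC library 5. Because of COL3A1, the count of lower members at 2 h and their median are also given without CTRL library 1, which leaves CTRL library 2 as the only control. Other results at 2 h are not given for that fit by itself.

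Compared per kilobase of annotated exon, which allows levels of different genes to be set side by side, CDC20 was the most abundant member in the 24 h controls at 197 CPM per kb (range 178 to 210). TPX2 followed at 122 CPM per kb (119 to 125) and did not overlap CDC20. CCNB1 at 95.5 (88.5 to 99.4) and UBE2C at 92.5 (87.4 to 95.7) came next and overlapped each other. CDC25C was the least abundant at 5.17 CPM per kb (4.22 to 6.08), below CENPE at 7.71 (6.70 to 8.23).

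After 24 h of ODC, 44 of the 45 members had a lower fitted level than in CTRL, beside 49.9% of all 12689 genes tested, but the differences were small and no member passed the test. The median log2 fold change was -0.20 over the members and 0.00089 over all genes tested. The lowest was NUF2 at -0.37 and the only positive value was CENPF at 0.030, a gene singled out after its value was seen. No member had an adjusted p under 0.05 in edgeR's quasi-likelihood test (0 of 45, beside 24 genes or 0.189% of all tested), nor in DESeq2 or edgeR's likelihood ratio test. At an unadjusted p under 0.05, 7 of 45 members were lower (15.6%, beside 5.04% of all genes) and 0 were higher (beside 7.2%). None of the 45 joined an unadjusted p under 0.05 to a fold of 2 or more, which 2.35% of all genes did. In 12 of 45 members (26.7%) every ODC library was below every CTRL library, beside 8.51% of all genes, and in 0 members every ODC library was above, beside 9.42%. The 7 members with the smallest p lie on 7 different chromosomes (GRCh38, GENCODE genes): NCAPH at chr2:96335766-96377091, ECT2 at chr3:172750682-172821474, CDK1 at chr10:60778331-60794852, AURKB at chr17:8204733-8210600, NUF2 at chr1:163266576-163355764, NCAPG at chr4:17810979-17844865 and BUB1B at chr15:40161023-40221123.

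**Figure D1:**
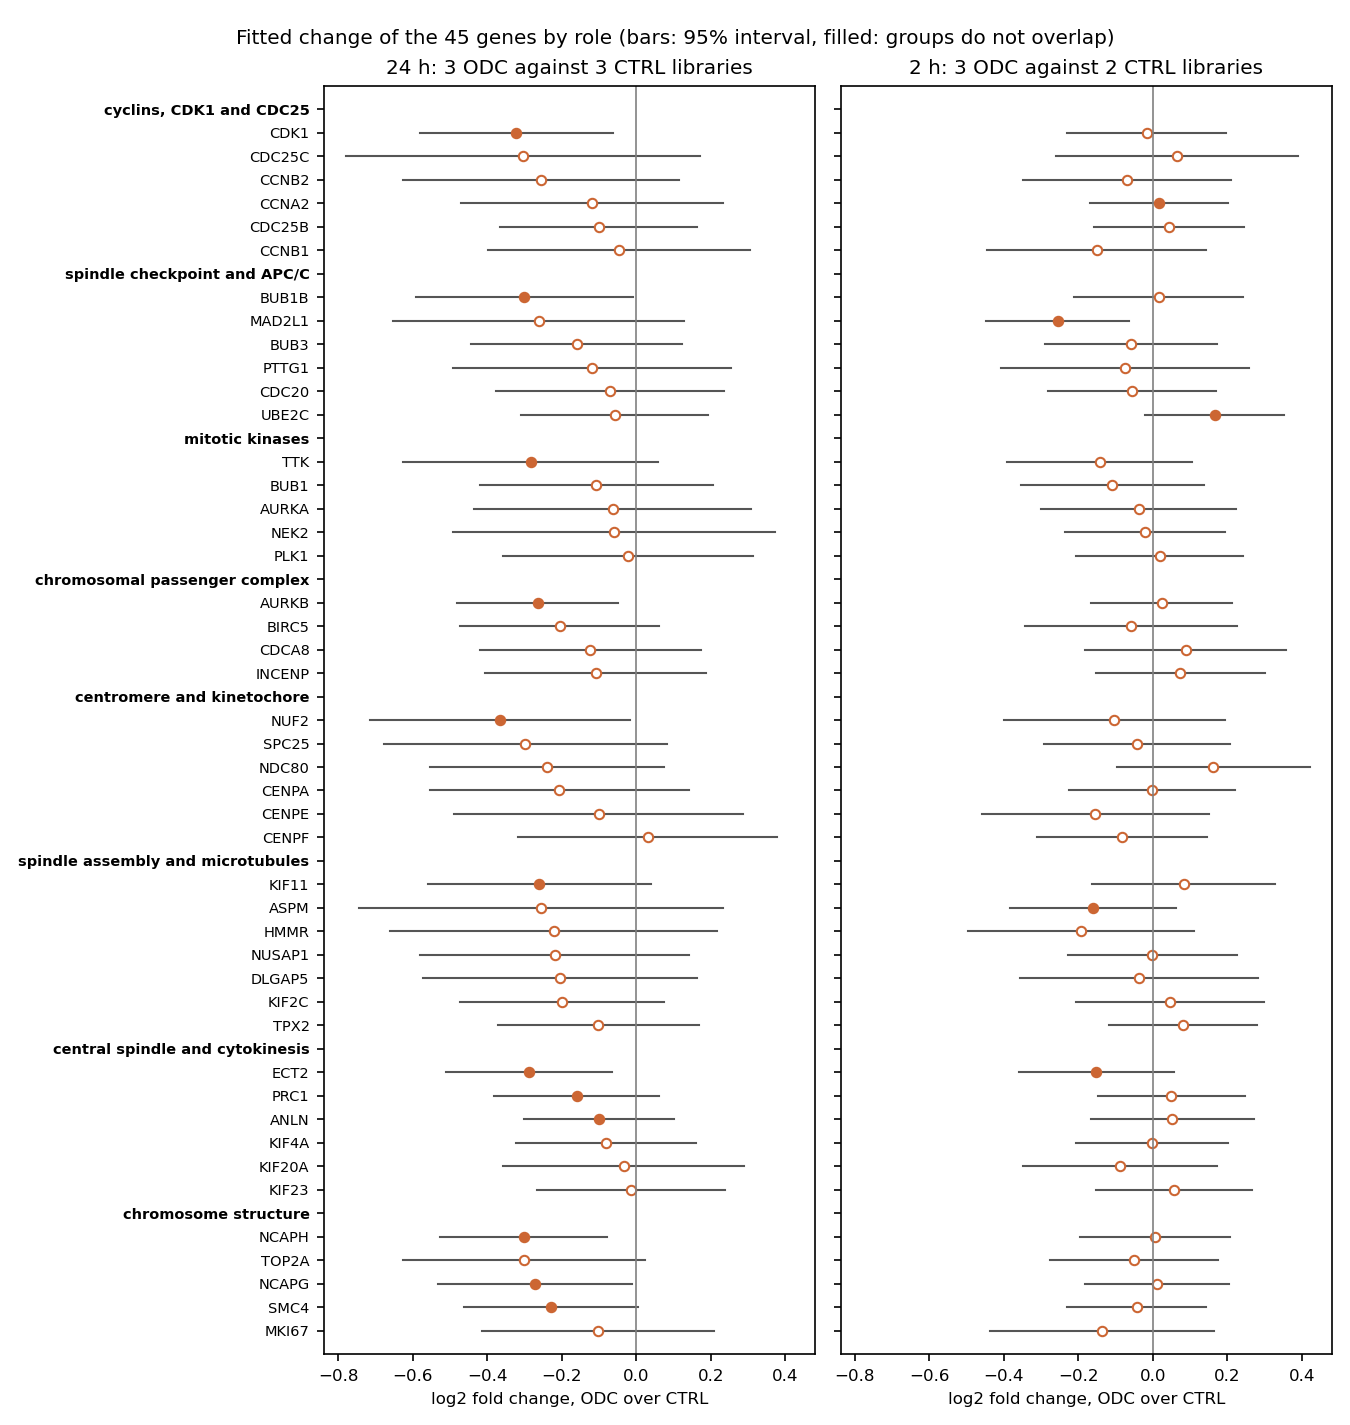
Fitted log2 fold change of ODC over CTRL for each of the 45 genes (points) with its 95% interval (bars), grouped by role, at 24 h on the left and at 2 h on the right. Filled points mark genes whose CTRL and ODC libraries do not overlap; at 24 h 44 of 45 points lie below 0, and at 2 h 27 of 45 do.

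Among the cyclins, CDK1 and the CDC25 phosphatases, all 6 members were lower at 24 h, with a median of -0.19. CDK1, the kinase that triggers mitotic entry, had 181, 181 and 177 CPM in CTRL libraries 1, 3 and 5 and 165, 127 and 139 CPM in ODC libraries 2, 4 and 6. The groups did not overlap, and its log2 fold change was -0.32 (SE 0.11, adjusted p = 0.295). Its partner CCNB1, or cyclin B1, had 242, 215 and 240 CPM in CTRL and 272, 178 and 225 CPM in ODC. ODC library 2 held the highest CCNB1 level of all 6 and library 4 the lowest, and the fitted difference was -0.047 (SE 0.15, 95% interval -0.40 to 0.30). CCNA2, or cyclin A2, which acts in S phase and G2, had 123, 115 and 132 CPM in CTRL and 126, 87.5 and 128 CPM in ODC, a difference of -0.12 (SE 0.15) in which only library 4 fell outside the control range on the low side. The remaining values were -0.26 for cyclin B2 (CCNB2), -0.30 for CDC25C and -0.10 for CDC25B, each with an interval that includes 0.

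The 5 mitotic kinases other than those of the passenger complex had the smallest median difference of any role group, -0.064. PLK1, the Polo-like kinase that acts in centrosome maturation and mitotic exit, had 160, 170 and 177 CPM in CTRL and 179, 130 and 190 CPM in ODC. Libraries 2 and 6 were above every control and library 4 below every control, and the fitted log2 difference was -0.022 (SE 0.15, 95% interval -0.36 to 0.31). AURKA, which builds spindle poles, had 159, 154 and 169 CPM in CTRL and 182, 115 and 163 CPM in ODC, a difference of -0.064 (SE 0.16). BUB1, a kinase of the kinetochore and the checkpoint, had 377, 363 and 370 CPM in CTRL and 394, 274 and 363 CPM in ODC, a difference of -0.11 (SE 0.14). For these genes the sign rested on library 4, since without it the fitted differences were 0.12 for PLK1, 0.10 for AURKA and 0.027 for BUB1. TTK, the checkpoint kinase MPS1, was the exception in the group, with 66.4, 68.3 and 62.4 CPM in CTRL and 59.5, 41.7 and 60.7 CPM in ODC, groups that did not overlap (-0.28, SE 0.15). NEK2, a centrosomal kinase, was at -0.060.

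In the spindle checkpoint and APC/C group, all 6 members were lower and the median was -0.14. BUB1B encodes BUBR1, a subunit of the complex that inhibits the APC/C, and had 89.6, 110 and 83.7 CPM in CTRL and 83.0, 69.8 and 76.9 CPM in ODC. The groups were separated only narrowly, by ODC library 2 against CTRL library 5, and the log2 fold change was -0.30 (SE 0.13, adjusted p = 0.396). CDC20, the APC/C activator that the checkpoint holds, had 412, 359 and 422 CPM in CTRL and 434, 316 and 386 CPM in ODC, a difference of -0.070 (SE 0.13) with overlapping groups. MAD2L1, which encodes the MAD2 checkpoint protein, was at -0.26, BUB3 at -0.16, the separase inhibitor PTTG1 at -0.12 and UBE2C, the ubiquitin-conjugating enzyme of the APC/C, at -0.058, all with overlapping groups.

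The chromosomal passenger complex corrects faulty attachments of chromosomes, and all 4 of its members were lower, with a median of -0.16. AURKB, its kinase, had 114, 111 and 112 CPM in CTRL and 102, 87.3 and 91.8 CPM in ODC. The controls were tight, at 112 ± 1.77 CPM (SD, n = 3), a spread no larger than counting error. All ODC libraries were below them, and the log2 fold change was -0.26 (SE 0.094, adjusted p = 0.301). The scaffold and targeting subunits overlapped between groups, with -0.21 for survivin (BIRC5), -0.12 for borealin (CDCA8) and -0.11 for INCENP.

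Of the 6 centromere and kinetochore genes, 5 were lower and the median was -0.22. NUF2, a subunit of the NDC80 complex that binds microtubules, had 78.7, 68.1 and 70.3 CPM in CTRL and 67.9, 45.3 and 55.1 CPM in ODC. It was the most negative member (log2 fold change -0.37, SE 0.15, adjusted p = 0.384), although ODC library 2 and CTRL library 3 nearly met. The other subunits of that complex were at -0.24 for NDC80 and -0.30 for SPC25, and the centromeric histone CENPA was at -0.21. CENPF, a large late-cycle kinetochore protein, had 254, 349 and 266 CPM in CTRL and 304, 255 and 330 CPM in ODC, with groups that overlapped throughout (0.030, SE 0.15), and the kinesin CENPE was at -0.10.

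The 7 spindle assembly and microtubule genes were all lower, with a median of -0.22 and values from -0.26 for KIF11, the motor that separates the spindle poles, to -0.10 for TPX2, the activator of AURKA. KIF11 alone did not overlap, with 159, 201 and 160 CPM in CTRL and 153, 127 and 154 CPM in ODC. The spindle pole protein ASPM was at -0.26, the hyaluronan receptor HMMR at -0.22, the microtubule binders NUSAP1 and DLGAP5 at -0.22 and -0.20 and the depolymerizing kinesin KIF2C at -0.20, and all 5 overlapped. The 6 genes of the central spindle and of cytokinesis had a median of -0.090, and 3 of them did not overlap. ECT2, the exchange factor that activates RHOA at the cleavage furrow, had 254, 256 and 262 CPM in CTRL and 214, 189 and 228 CPM in ODC. All 3 treated libraries were clearly below the controls (log2 fold change -0.29, SE 0.097, adjusted p = 0.279). PRC1, which bundles midzone microtubules, and the ring scaffold anillin (ANLN) were at -0.16 and -0.10, while the kinesins KIF4A, KIF20A and KIF23 of the same structure were at -0.081, -0.034 and -0.014.

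Genes of chromosome structure had the most negative median, -0.27, with all 5 lower and 3 not overlapping. NCAPH, a condensin I subunit, had 147, 148 and 141 CPM in CTRL and 128, 107 and 118 CPM in ODC, and it held the smallest adjusted p of any member (log2 fold change -0.30, SE 0.097, adjusted p = 0.262). Its condensin partner NCAPG had 181, 220 and 178 CPM in CTRL and 173, 155 and 152 CPM in ODC (-0.27, SE 0.11, adjusted p = 0.388). SMC4, the condensin ATPase, had 572, 609 and 609 CPM in CTRL and 515, 456 and 557 CPM in ODC (-0.23, SE 0.10). For these 3 condensin genes the highest treated library was thus below the lowest control. Of the condensin genes in the list of other mitosis genes described below, SMC2, NCAPH2 and NCAPD3 did not overlap either, while NCAPD2 and NCAPG2 did. NCAPD2 had 368 CPM in ODC library 2 against 354 CPM in CTRL library 5 (-0.21). NCAPG2 had 218 CPM in ODC library 6 against 212 CPM in CTRL library 3 (-0.027). TOP2A, the topoisomerase that untangles sister chromatids, had 389, 404 and 340 CPM in CTRL and 342, 246 and 331 CPM in ODC (-0.30, SE 0.14), and MKI67, the proliferation marker Ki-67, had 647, 895 and 735 CPM in CTRL and 749, 732 and 640 CPM in ODC (-0.10, SE 0.13). Both overlapped.

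**Figure D2:**
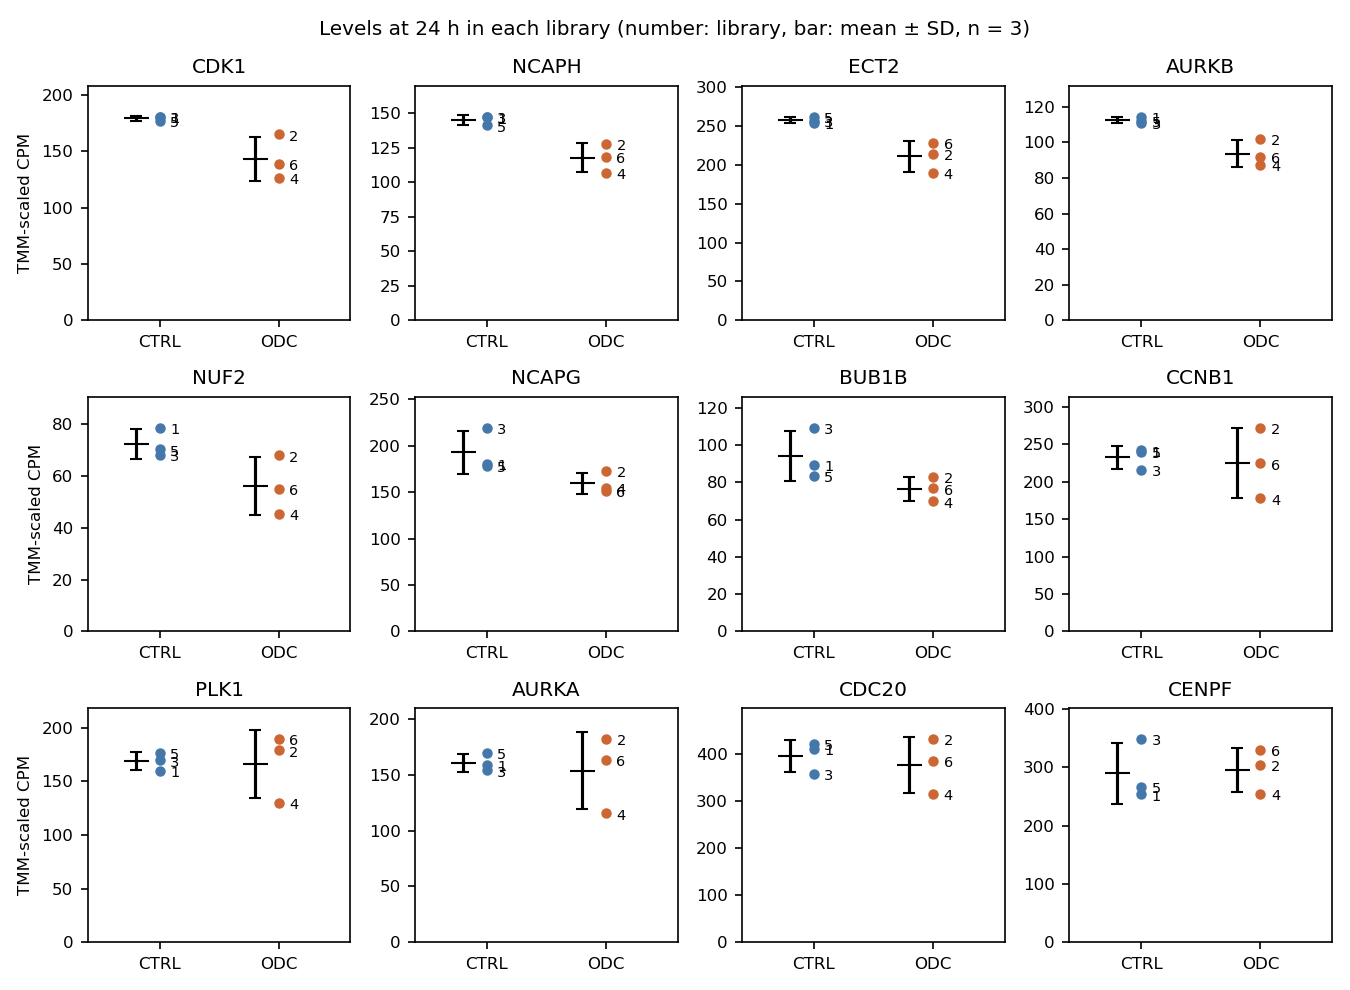
TMM-scaled CPM (y axis, from 0) of 12 of the 45 genes in each CTRL and ODC library at 24 h; points are libraries with their number and bars give the mean ± SD of 3. The first 7 genes do not overlap between groups, whereas in CCNB1, PLK1, AURKA and CDC20 ODC library 4 lies below all controls and ODC library 2 above all of them.

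The members varied together by library, and ODC library 4 carried a large part of the difference at 24 h. It held the lowest level of 41 of the 45 members, while 20.5% of all genes were lowest there. The exceptions were CDC25B, MKI67 and NCAPG, lowest in ODC library 6, and CENPF, lowest in CTRL library 1. Summed over the members, the level was 8410, 9069 and 8568 CPM in CTRL libraries 1, 3 and 5 and 8539, 6812 and 8063 CPM in ODC libraries 2, 4 and 6. Thus ODC library 2 lay within the control range, library 6 was slightly below it and library 4 was well below. The median coefficient of variation over members was 15.8% in ODC and 7.22% in CTRL.

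Without ODC library 4, 30 of 45 members had a lower mean, the median log2 fold change was -0.088 and 1 member kept an unadjusted p under 0.05. The 12 members without overlap stay separate by construction when a treated library is left out, and no further member became separate on the low side. These 12 of 45 (26.7%) stand beside 12.9% of all genes with every ODC library below every CTRL library among the remaining 5. The 12 were CDK1, TTK, BUB1B, AURKB, NUF2, KIF11, PRC1, ANLN, ECT2, NCAPG, NCAPH and SMC4. On the high side PLK1 became separate, and the share of all genes on that side is not given. Library 4 was not the most shallow (19182441 counts), and its 10 most abundant genes took 5.91% of counts, against 4.27 to 5.00% in the other 5 libraries at 24 h; the part of this in the result was not tested. Leaving out ODC library 2 instead gave 16 members at an unadjusted p under 0.05 and a median of -0.25, and leaving out CTRL library 1 or CTRL library 5 gave 4 members each. In each of these fits 0 members passed the adjusted threshold. The share of all genes at an unadjusted p under 0.05 is not given for the fits without a library. Their counts of members at that level therefore cannot be set beside it.

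**Figure D3:**
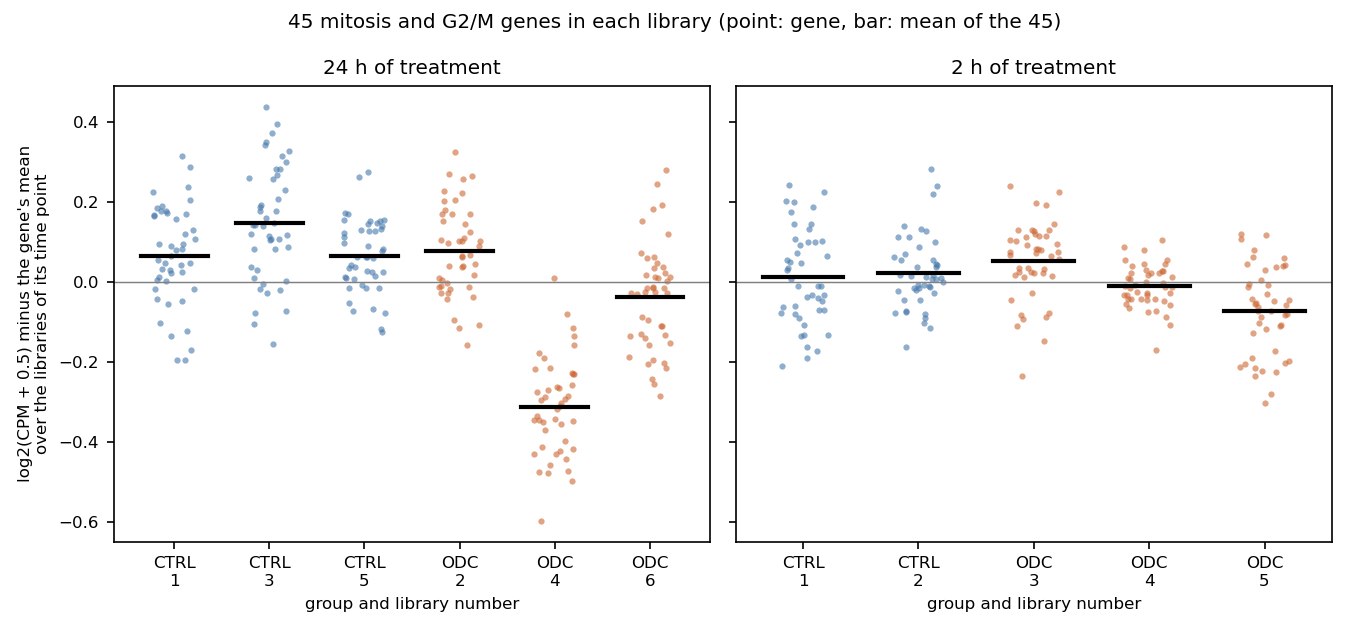
Each point is 1 of the 45 genes, placed by its log2(CPM + 0.5) in a library minus the gene's mean over the libraries of that time point (y axis); black bars are the mean of the 45 and the x axis gives group and library number. At 24 h ODC library 4 has a mean of -0.31 while the other libraries lie between -0.038 and 0.15, and at 2 h all 5 means lie between -0.074 and 0.052.

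Promoter sequences are shown for 6 of the members. Whether promoter elements bear on the way the members varied between libraries was not tested. The windows come from RefSeq (GRCh38.p14), 250 bases before to 50 after a start, with a match for 39 of the 45 members (50 windows, as some genes have several starts). The 6 without an entry were AURKA, BUB3, TTK, TPX2, BIRC5 and UBE2C. Late cell cycle promoters are known for the cell cycle genes homology region (CHR), bound by MuvB complexes, and for CCAAT boxes, bound by NF-Y. The 120 bases before the start are printed 5′ to 3′ on the + strand, with capitals for TTTGAA (the CHR), TTTAAA (its variant) and CCAAT, each in either orientation. The 6 were picked by role and for the different layouts of these letters, and for CDK1, which has 2 windows, the one with more matches was taken.
CCNB2, chr15:59105026-59105145: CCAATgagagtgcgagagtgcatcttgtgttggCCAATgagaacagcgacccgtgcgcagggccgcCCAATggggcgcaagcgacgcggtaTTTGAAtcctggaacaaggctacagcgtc
CDK1, chr10:60778358-60778477: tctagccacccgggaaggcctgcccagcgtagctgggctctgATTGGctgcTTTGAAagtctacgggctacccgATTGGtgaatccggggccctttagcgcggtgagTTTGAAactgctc
BUB1B, chr15:40160949-40161068: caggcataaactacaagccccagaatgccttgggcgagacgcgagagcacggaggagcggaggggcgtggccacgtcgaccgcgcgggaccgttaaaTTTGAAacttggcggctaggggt
CCNB1, chr5:69167030-69167149: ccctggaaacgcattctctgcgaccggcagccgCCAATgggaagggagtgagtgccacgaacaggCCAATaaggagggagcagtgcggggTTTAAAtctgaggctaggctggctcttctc
PLK1, chr16:23678769-23678888: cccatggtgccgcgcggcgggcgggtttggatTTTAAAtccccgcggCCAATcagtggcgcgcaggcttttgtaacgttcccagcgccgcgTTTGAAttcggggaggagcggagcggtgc
KIF4A, chrX:70289984-70290103: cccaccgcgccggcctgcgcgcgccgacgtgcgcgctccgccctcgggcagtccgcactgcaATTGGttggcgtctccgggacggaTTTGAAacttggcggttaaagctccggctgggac

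CCNB2 held 3 CCAAT boxes upstream of a TTTGAA that began 29 bases before the start. PLK1 held its TTTGAA at the same distance of 29 bases, and CCNB1 had the TTTAAA variant 30 bases before the start and no TTTGAA. In CDK1 there were 2 TTTGAA and 2 CCAAT matches, and BUB1B had a TTTGAA with no CCAAT in these 120 bases. GENCODE places an earlier gene start for 5 of these genes, so that 15 to 120 bases of each of those windows lie inside the GENCODE gene, and KIF4A alone had none.

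Over the whole windows, TTTGAA on either strand was found in 31 of 50 member windows (62%), beside 15.2% of all 35116 windows in the table and 10.4% of the 13881 windows of genes tested at 24 h. CCAAT was found in 72% beside 34.6% and 34.9%, TTTAAA in 32% beside 12.2% and 8.64%, and both TTTGAA and CCAAT in 48% beside 5.9% and 4.17%, with overlapping matches in 2 of the member windows. The E2F motif TTCCCGC was in 12% of member windows beside 6.55% of all windows and 9.64% of those of tested genes, and by gene in 12.8% of members beside 12.9% of tested genes. TTTGGCGC was in 2% of member windows beside 0.652% and 1%. By gene, 28 of 39 members (71.8%) had a TTTGAA, beside 13.7% of tested genes, and their median log2 fold change at 24 h was -0.23 against -0.11 in the 11 without it, given as a description with no test. AURKB and NCAPH were among the 11 without it and did not overlap between groups, while PLK1, CDC20 and CENPF had a TTTGAA and values near 0. The same split went the other way for CCAAT, with -0.16 in members that had it against -0.23 without. It did so for TTTAAA too, with -0.12 against -0.23. For TTCCCGC, found in 5 members, it was -0.27 against -0.18, and for TTTGGCGC, found in 1, -0.22 against -0.20. A match of letters says nothing of binding in these cells.

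At 2 h the members differed little between CTRL and ODC and in both directions. Of the 45, 27 were lower and 18 higher (51.8% of all 13332 genes tested were lower), and the median log2 fold change was -0.021 beside -0.0060 over all genes. No member passed the adjusted threshold (0 of 45, beside 0 genes or 0% of all tested), nor in DESeq2 or the likelihood ratio test. At an unadjusted p under 0.05, 1 member was lower (beside 0.87% of all genes) and 0 were higher (beside 1.47%). In 3 members every ODC library was below both controls (6.67%, beside 7.42% of all genes), and in 2 every ODC library was above (4.44%, beside 7.89%).

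MAD2L1 was the member at an unadjusted p under 0.05, with 80.6 and 78.2 CPM in CTRL libraries 1 and 2 and 67.1, 67.1 and 65.2 CPM in ODC libraries 3, 4 and 5. All 3 treated libraries were below both controls, with a log2 fold change of -0.26 (SE 0.083, 95% interval -0.45 to -0.064, adjusted p = 1.00). ECT2 and ASPM were the other members with all treated libraries lower, at -0.15 and -0.16. On the high side stood UBE2C, with 163 and 159 CPM in CTRL and 176, 183 and 182 CPM in ODC (0.17, SE 0.081), and CCNA2, whose 141 and 141 CPM in CTRL and 143, 143 and 141 CPM in ODC hardly differed (0.016, SE 0.081).

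Of the central genes of mitotic entry, CDK1 was close to its controls at 2 h, and CCNB1 was lower with an interval that includes 0. CDK1 had 219 and 195 CPM in CTRL and 216, 199 and 199 CPM in ODC (-0.016, SE 0.093, 95% interval -0.23 to 0.20). CCNB1 had 319 and 275 CPM in CTRL and 298, 275 and 228 CPM in ODC (-0.15, SE 0.13, 95% interval -0.44 to 0.14). For the others chosen by role the log2 fold changes were 0.019 for PLK1, -0.038 for AURKA, 0.024 for AURKB, -0.11 for BUB1, -0.055 for CDC20, -0.050 for TOP2A and -0.14 for MKI67, and all overlapped. The 2 h value was more negative than that of 24 h for CCNB1 (-0.047 at 24 h). It was near that of 24 h for BUB1 and MKI67 (-0.11 and -0.10 at 24 h). Summed member levels were 9507 and 9798 CPM in CTRL and 9617, 9473 and 9206 CPM in ODC. Without CTRL library 1, which carried the COL3A1 counts, CTRL library 2 was the only control. In that fit 27 of 45 members were lower and the median was -0.023, beside a median of 0.011 over all genes. The share of all genes that were lower in it is not given, and a single control gives no spread.

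The difference between the 24 h and the 2 h effect was tested in a joint fit of all 11 libraries, where 40 of 45 members had a more negative effect at 24 h and the median difference was -0.17 beside 0.0025 over all genes. No member passed the adjusted threshold (0 of 45, beside 2 of 13333 genes or 0.015%), nor in DESeq2 or the likelihood ratio test, and 2 were lower (beside 2.77%) and 0 higher (beside 3.17%) at an unadjusted p under 0.05. These 2 were AURKB, with a difference of -0.31 (SE 0.12, 95% interval -0.57 to -0.042, adjusted p = 0.758), and NCAPH, with -0.33 (SE 0.13, 95% interval -0.61 to -0.037, adjusted p = 0.762). At 2 h AURKB had been flat, with 101 and 101 CPM in CTRL and 103, 104 and 101 CPM in ODC, and NCAPH had 105 and 114 CPM in CTRL and 112, 111 and 106 CPM in ODC. The difference of effects was -0.32 for CDK1, -0.27 for TOP2A and -0.15 for CCNA2, and between -0.056 and 0.086 for PLK1, AURKA, CDC20, BUB1, MKI67 and CCNB1. Without ODC library 4 of 24 h, 0 members had an unadjusted p under 0.05 and the median was -0.079.

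Other genes of the cell cycle were read from lists written by function. Of all genes tested at 24 h, 49.9% had a lower fitted value. At an unadjusted p under 0.05, 5.04% were lower and 7.2% higher. At 2 h the same shares were 51.8%, 0.87% and 1.47%, and the list counts below stand beside these. Among 59 other mitosis genes at 24 h, 55 were lower and 4 higher, the median was -0.15, and 9 were lower at an unadjusted p under 0.05, with 0 called. The leading 3 were CENPK of the inner kinetochore (30.3 to 32.4 CPM in CTRL and 20.4 to 24.3 in ODC, log2 fold change -0.51, SE 0.12, adjusted p = 0.139), the chromatin protein HMGB2 (-0.42) and the kinase MELK (-0.34). At 2 h this list had 36 lower, 23 higher and a median of -0.028, with CIT and CKS2 lower at an unadjusted p under 0.05 (-0.24 and -0.31, adjusted p = 1.00). The 22 FOXM1, MuvB and RB family regulators had a median of -0.11 at 24 h with 1 lower at that level, E2F8 (-0.38), and a median of 0.0055 at 2 h with 1 lower, E2F5 (-0.48). The 17 APC/C subunits and their ubiquitin enzymes had medians of -0.073 and -0.037, with 0 and 1 at an unadjusted p under 0.05, the latter UBE2S at 2 h (0.34). The 12 genes of cohesin had medians of -0.083 and -0.020, with ESCO2 lower at 24 h (-0.32) and 0 at 2 h.

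On the inhibitory side, 12 of 16 listed CDK inhibitors and inhibitory kinases could be tested at 24 h, with a median of 0.024. At an unadjusted p under 0.05, 4 were higher (beside 7.2% of all genes) and 1 was lower (beside 5.04%), with 0 called. CDKN1A, which encodes the CDK inhibitor p21, had 86.9, 89.4 and 107 CPM in CTRL libraries 1, 3 and 5 and 206, 131 and 218 CPM in ODC libraries 2, 4 and 6. All treated libraries were above all controls, with a log2 fold change of 0.97 (SE 0.19, adjusted p = 0.107). ODC library 4, the lowest in most mitosis genes, had the smallest CDKN1A level of the treated libraries. Whether CDKN1A bears on the levels of the mitosis genes was not tested. The checkpoint kinase CHEK1 was at -0.32 (adjusted p = 0.215) and the phosphatase CDC14B at 0.43 (adjusted p = 0.253). Of the G1 and S cyclins and their kinases, 10 of 11 were tested, with a median of -0.090 and 1 lower, CDK2 (-0.37, adjusted p = 0.228). At 2 h neither list had a member at an unadjusted p under 0.05, and their medians were 0.048 and 0.016.

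Replication genes followed another order of libraries. Of 34 S-phase and replication genes, 31 were lower at 24 h (beside 49.9% of all genes), with a median of -0.19. At an unadjusted p under 0.05, 8 were lower (beside 5.04%) and 0 were called. The leading 3 were the clamp loader RFC4 (-0.56), the helicase subunit MCM7 (-0.42) and the ribonucleotide reductase subunit RRM2 (-0.34). The mean log2 deviation of the 34 was lowest in ODC library 6 (-0.22), with -0.040 in library 4 and -0.023 in library 2. For the 45 mitosis and G2/M genes the same means were -0.038, -0.31 and 0.077 in libraries 6, 4 and 2. At 2 h 11 of the 34 were lower (beside 51.8% of all genes) and the median was 0.059. The mean deviations of the 34 there were -0.095 and 0.028 in CTRL libraries 1 and 2. In ODC libraries 3, 4 and 5 they were -3.3e-05, 0.085 and -0.018. The lowest was thus CTRL library 1, which carried the COL3A1 counts, and no value without it is given for this list. Of the renal markers, KRT18, KRT8 and VIM were also lower at 24 h at an unadjusted p under 0.05 (-0.71, -0.62 and -0.27, 0 called). Of the 6 listed renal markers that could be tested, 5 were lower and PAX8 was higher, with 437, 654 and 498 CPM in CTRL and 568, 891 and 546 CPM in ODC, groups that overlapped (0.33, SE 0.22, adjusted p = 0.600). The list summed to 4857 to 5758 CPM in CTRL and 3963 to 4901 CPM in ODC; the part of this in the values of the mitosis genes was not tested.

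**Figure D4:**
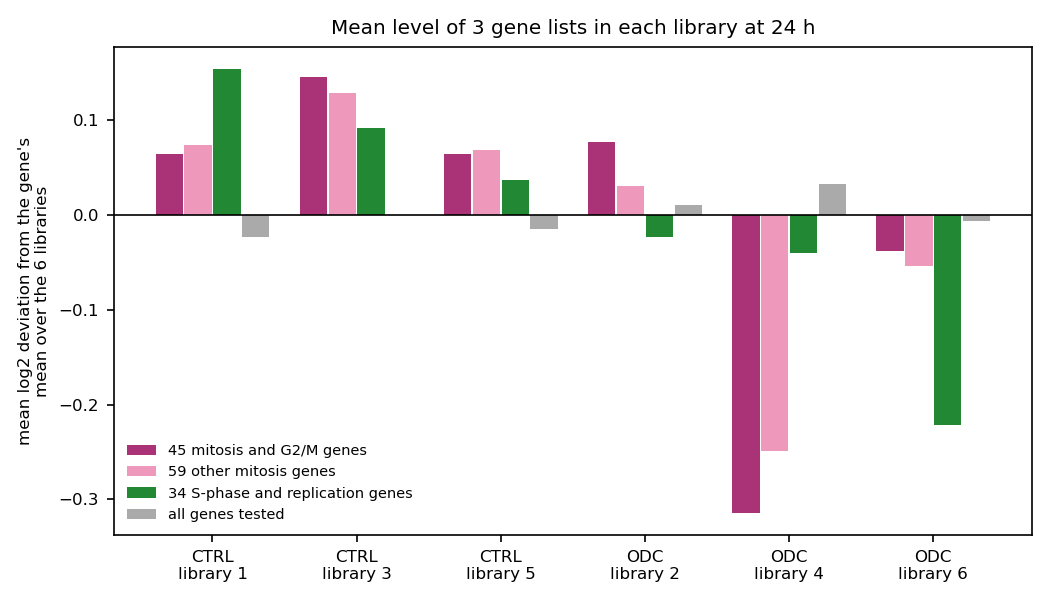
Mean over a gene list of the log2 deviation from each gene's mean over the 6 libraries at 24 h (y axis), by library (x axis), for the 45 genes, 59 other mitosis genes, 34 replication genes and all genes tested. Both mitosis lists are lowest in ODC library 4 (-0.31 and -0.25) and the replication list in ODC library 6 (-0.22), while all genes stay between -0.023 and 0.033.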

How the data were processed

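Stranded poly(A) libraries of Caki-1-SR RNA were sequenced on an Illumina instrument. Per the labels, the authors aligned reads to hg38 with STAR 2.7.0f, counted them per gene with HTSeq 0.9.1 and tested with edgeR 3.26.8; the paper gives other versions of STAR and edgeR. The deposited values are raw read counts per gene symbol, 1 table per time point, with no normalization. Every column was mapped to a sample by its name.

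Each table was fitted whole in edgeR 4.0.16 (R 4.3.3) with TMM scaling, filterByExpr (minimum count 10, minimum total 15) and the quasi-likelihood F test, two-sided, with Benjamini-Hochberg adjustment over all genes tested and a threshold of 0.05. The difference between the effects came from a joint fit. Alternatives were other filters, scalings and tests, DESeq2 1.42.0, adjacent libraries as pairs and each library left out. The pipeline was tested on simulated data whose planted changes were larger than those fitted for any member. That test therefore does not cover differences as small as theirs. Library deviations used log2(CPM + 0.5). Exon lengths came from GENCODE 44, with exons of all transcripts merged. Named genes were members at an unadjusted p under 0.05 (at most 15), 10 members chosen by role and at most 3 genes of each other list at that level. The members and lists were chosen with earlier results of these data known, and count intervals would cover counting error only.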

Additional observations from a re-analysis of the deposited data

How the results depend on the processing

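No member passed the adjusted threshold in any of the 3 comparisons under any alternative run, and the smallest adjusted p of a member at 24 h ranged from 0.0573 (NUF2, adjacent libraries as pairs) to 0.703 (without CTRL replicate 1). Over the 12 settings that kept all libraries the median at 24 h stayed between -0.23 and -0.20; leaving out libraries it ran from -0.25 to -0.088. The number of members at an unadjusted p under 0.05, 7 at 24 h, was 11 in the joint fit, 13 with adjacent libraries as pairs and 1 to 16 without single libraries, the 1 being without ODC library 4. At 2 h, where it was 1, it was 0 in the joint fit and 1 to 2 without single libraries. For the difference between times, where it was 2, it was 0 in the likelihood ratio test and 0 to 8 without single libraries (0 without ODC library 4 of 24 h or ODC library 4 of 2 h, 8 without ODC library 2 of 24 h). For these alternative fits the share of all genes at an unadjusted p under 0.05 is not given. A higher or lower count of members in them is therefore not read as a result about the members. The labels give the groups no shared replicate numbers, so that pairing adjacent 24 h libraries is a hint from the library order and not part of the stated design. The deviations of the adjacent libraries from their group means correlated at 0.20, 0.58 and 0.45, and the paired fit called 686 genes in place of 24. Correlations of libraries that are not adjacent were not computed, so these values cannot show whether the libraries are pairs. Within every adjacent pair 19 of 45 members were lower in ODC (42.2%, beside 22.9% of all genes) and 0 were higher (beside 23.5%), a count added after seeing the data; MAD2L1, BIRC5, TOP2A and CCNB2, whose groups overlap, were among the 19. The count of all genes called at 24 h was 386 in DESeq2, 401 in the likelihood ratio test, 186 in the joint fit, 92 with every gene kept and 2 to 70 without single libraries. At 2 h it was 5 in the likelihood ratio test, 1 in DESeq2 and 42 without CTRL replicate 2. For the difference between times it was 36 in DESeq2 and 37 in the likelihood ratio test. CENPF at 24 h was -0.0019 with library sizes only. Without single libraries the sign of 8 named members changed at 24 h: CENPF ran from -0.065 to 0.19, MKI67 from -0.22 to 0.031, CCNB1 from -0.21 to 0.090, PLK1 from -0.13 to 0.12, AURKA from -0.20 to 0.10, BUB1 from -0.22 to 0.027, CDC20 from -0.18 to 0.039 and CCNA2 from -0.21 to 0.033. At 2 h it changed for 6: CDK1 from -0.081 to 0.068, PLK1 from -0.060 to 0.12, TOP2A from -0.12 to 0.029, AURKA from -0.12 to 0.067, MKI67 from -0.29 to 0.046 and CDC20 from -0.10 to 0.018. In the difference between times it changed for 7: BUB1 from -0.12 to 0.13, MKI67 from -0.17 to 0.17, CCNB1 from -0.070 to 0.23, PLK1 from -0.17 to 0.096, AURKA from -0.18 to 0.13, CDC20 from -0.14 to 0.085 and CCNA2 from -0.25 to 0.0069. The cause of these changes was not tested beyond the library left out. With a biological coefficient of variation of 0.166 at 24 h, the 95% intervals of single members extended 0.20 to 0.49 on the log2 scale to either side.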

Other observations

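Levels of some members also differed between the time points, on a scaling over all 11 libraries. In 10 of 45 members every library of 24 h was below every library of 2 h, in 1 it was above, and 34 overlapped, beside 14% of all 13333 genes below and 13% above. CENPF spanned 253 to 355 CPM in the 24 h libraries against 496 to 609 CPM in those of 2 h, ASPM spanned 117 to 226 against 250 to 308 CPM, and UBE2C spanned 99.5 to 125 against 158 to 182 CPM. BUB1 was the member above, spanning 273 to 393 CPM in the 24 h libraries against 217 to 272 CPM in those of 2 h. Among the controls alone, 34 of 45 members had a lower mean at 24 h (beside 49.6% of all genes), with a median log2 difference of -0.15 beside 0.0036 over all genes. The time of treatment and the month in the titles cannot be told apart. These members were singled out after their values were seen, and no test was made.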
